A study of Sus scrofa with 8 samples.

Results

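The genes described here encode proteins of the cytosolic ribosome, and they were followed through m6A peak lists of pig muscle. They were chosen by symbol alone, as every gene in any of the 4 deposited lists whose symbol begins with RPL or RPS and a digit, or is RPLP0, RPLP1, RPLP2 or RPSA. S6 kinase genes and pseudogene-like names were left out. This gave 46 genes of the 5650 with a peak in at least 1 list, 25 of the large and 21 of the small ribosomal subunit by their symbols. Muscle RNA came from 2 males of the Landrace breed, which is Danish, and 2 males of the Jinhua breed, a Chinese breed with more fat within its muscle, all aged 180 days. Each animal gave an input library and a library immunoprecipitated (IP) with an antibody to N6-methyladenosine (m6A), a methyl mark on adenosines inside messenger RNA. The 8 libraries thus form 4 groups of 2, and the submitters deposited 1 peak list per animal, named here Jinhua 1, Jinhua 2, Landrace 1 and Landrace 2. The labels give no treatment and no genotype beyond the breed, and the study asked about the part of m6A in fat deposition within muscle.

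The ribosome is built from a small subunit, which binds the mRNA and reads its codons, and a large subunit, which joins the amino acids and holds the tunnel through which the new chain leaves. In mammals most of the proteins of both subunits are encoded by short, abundant mRNAs that begin with a run of pyrimidines (the TOP motif), through which mTOR signalling controls their translation together. The mark itself is placed by the METTL3 and METTL14 complex, commonly in long exons and near stop codons, and cytoplasmic readers of the YTHDF family bind it.

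A list states for each gene the number of peaks and, for each peak, the first and last base on 1 Ensembl transcript and the annotated part of that transcript. A gene is called in an animal when its list holds 1 or more peaks. Read counts, fold enrichment and p-values are not part of the lists. Depth is therefore unknown, no peak has an error of its own, and a gene without a peak may have been too weakly expressed or too shallowly read. The tissue was profiled in bulk, so fewer cells of a type and less RNA per cell cannot be told apart. The lists hold 3647 to 4468 genes and 6176 to 7733 peaks, with Jinhua 2 the longest. Of 12 symbols set as markers of skeletal muscle 9 were found, among them ACTA1, CKM, RYR1 and TTN, and all 9 were called in every list. With 2 animals per breed an exact two-sided test cannot go below p = 0.333. No difference between the breeds can therefore pass 0.05.

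Most ribosomal protein genes with any call were called in every animal. A peak was present in all 4 lists for 26 of 46 genes (56.5%), where the background over all 5650 called genes was 43.8%. Another 7 genes were called in 3 lists (15.2%, against 16% of all called genes), 3 in 2 lists (6.52%, against 15.9%) and 10 in 1 list (21.7%, against 24.3%). The share in all 4 lists was 12 of 21 for the small subunit and 14 of 25 for the large subunit. Most of these genes carried a single peak. The 46 genes had 37 peaks in Jinhua 1, 42 in Jinhua 2, 39 in Landrace 1 and 36 in Landrace 2, or 1.09 per called gene over the 154 peaks of all lists. All genes with at most 3 peaks per list had 1.41. Of the 40 ribosomal protein genes with at most 1 peak in any list, 20 were called in all 4 lists (50%), against 619 of 2949 such genes overall (21%). These shares are descriptions without a test, and the lists do not allow genes to be matched on expression.

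**Figure D1:**
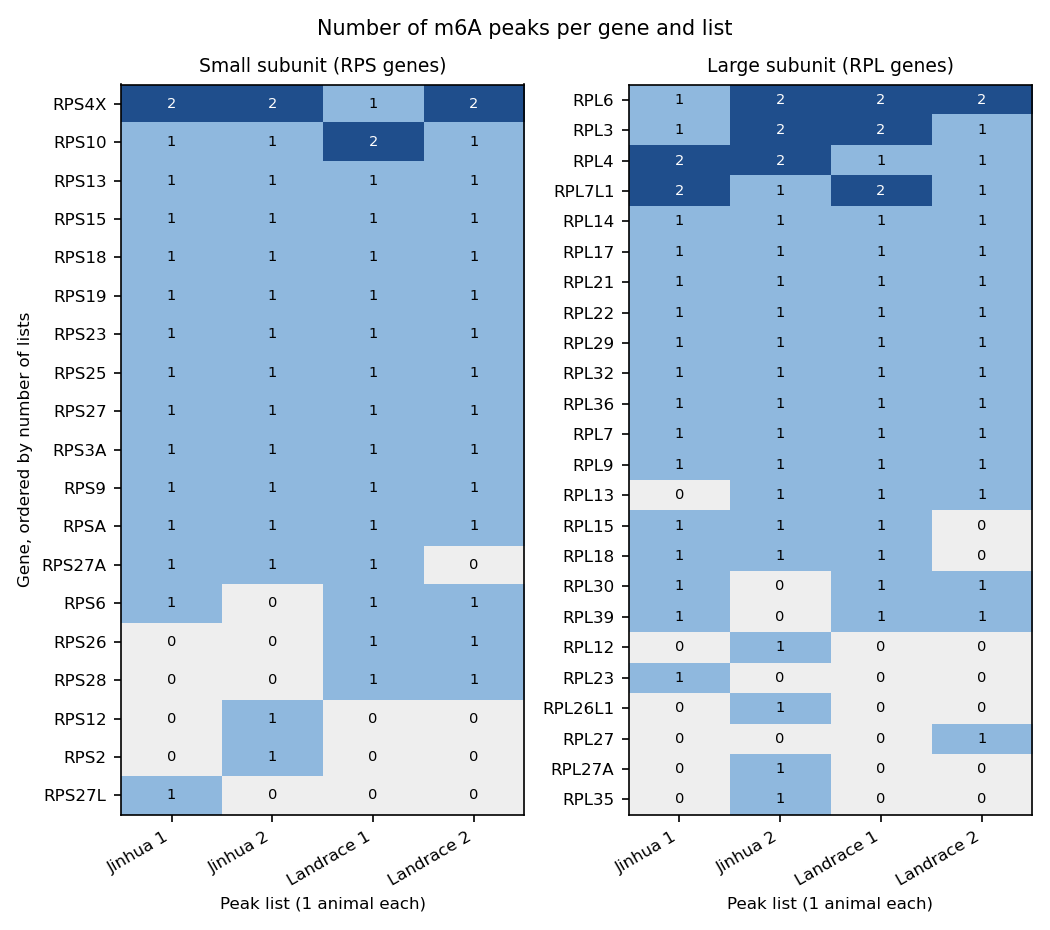
Number of m6A peaks of ribosomal protein genes (rows) in each of the 4 peak lists (columns), for 19 small-subunit genes on the left and 24 large-subunit genes on the right, ordered by the number of lists. The upper 12 rows on the left and the upper 13 on the right have a peak in every list, and the single calls at the bottom lie mostly in the column of Jinhua 2.

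**Figure D2:**
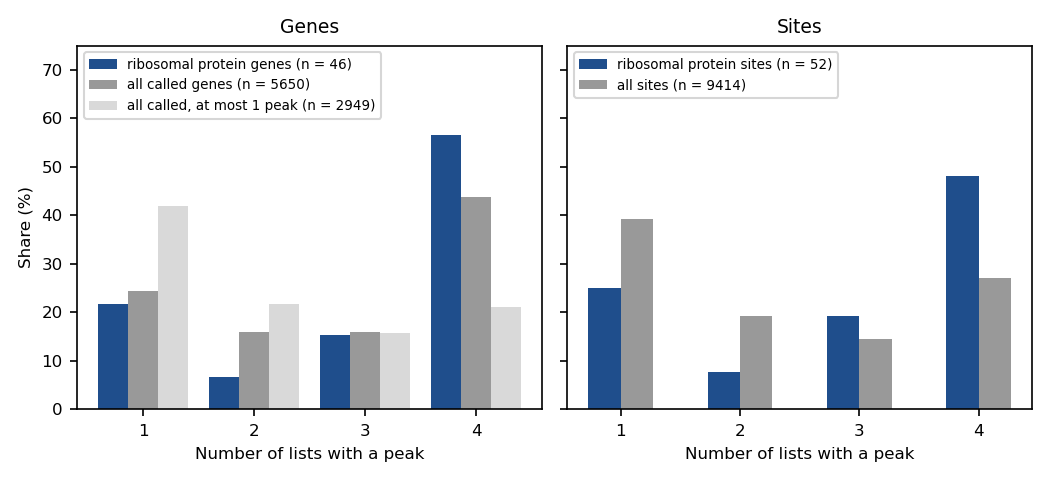
Share of genes (left) and of merged sites (right) with a peak in 1, 2, 3 or 4 lists, in percent, for ribosomal protein genes and for all called genes. On the right 48.1% of ribosomal protein sites lie in the bar for 4 lists, against 27.1% of all sites.

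Among small-subunit genes the peak of RPS4X was one of the most sharply placed. RPS4X (ENSSSCG00000012405), an X-linked gene for a protein of the small-subunit body, had a coding peak on ENSSSCT00000013564 that covered bases 678 to 835 for Jinhua 1, 681 to 838 for Jinhua 2, and 681 to 836 for either Landrace animal. Its midpoints thus spanned 3 bases over the 4 animals. An upstream coding peak lay at bases 372 to 584 (Jinhua 1), 381 to 617 (Jinhua 2) and 401 to 620 (Landrace 2), and Landrace 1 had none there. RPS9 (ENSSSCG00000029785), which helps to shape the mRNA entry side of the small subunit, had bases 419 to 578 of ENSSSCT00000027911 in Jinhua 1, 419 to 576 in Jinhua 2, 422 to 578 in Landrace 1 and 422 to 577 in Landrace 2. The RPS9 midpoints spanned 2.5 bases.

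RPSA, which is also known as the laminin receptor, had 1 coding peak per animal, from base 272 to 294 at its start and from base 466 to 480 at its end. Its midpoints spanned 5.5 bases. RPS3A, a protein of the small-subunit platform, had 1 coding peak per animal at bases 423 to 588 in Jinhua 1, 418 to 575 in Jinhua 2, 418 to 573 in Landrace 1 and 432 to 580 in Landrace 2. RPS19, the gene found mutated most often in human Diamond-Blackfan anaemia, had its peak at bases 671 to 840, 683 to 844, 671 to 827 and 671 to 828, with the Jinhua animals first and each breed by number. All 4 animals therefore overlapped at each of these 3 genes.

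RPS10, whose protein is ubiquitinated when ribosomes collide, had a shared coding peak at bases 658 to 818 in Jinhua 1, 660 to 819 in Jinhua 2, 626 to 789 in Landrace 1 and 629 to 792 in Landrace 2. Both Landrace peaks began about 30 bases before both Jinhua peaks, a spread of 34 bases in the start. This order of starts was not particular to RPS10. Among sites with 1 peak from each list it also held in RPL9, RPL14, RPL21, RPL32, RPS13, RPS18, RPS23 and RPSA. RPS9 had the reverse order. The share over all genes is not given here, so the order is a description only. Landrace 1 had another RPS10 peak at bases 351 to 460. RPS13 lay at bases 240 to 407 when the 4 peaks were joined. RPS18, of the small-subunit head, lay at bases 284 to 442. RPS15, whose tail reaches the decoding site, lay at bases 397 to 576, with the start in Jinhua 2 at base 461 and the others at bases 397 to 403.

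Several small-subunit transcripts had a peak that began at the first base of the transcript model. RPS25, a protein needed by some viral internal ribosome entry sites, had bases 1 to 125 of ENSSSCT00000016469 in every list. RPS27, a zinc-finger protein, had bases 1 to 100 of ENSSSCT00000007185 in every list. These were the 2 ribosomal protein sites with identical bounds in all 4 lists, out of 23 with 1 peak from each list. Over all genes this held for 35 of 2123 such sites. RPS23, which lies at the decoding centre, had bases 9 to 160 in Jinhua 1, 31 to 130 in Jinhua 2, 1 to 130 in Landrace 1 and 1 to 100 in Landrace 2. RPS12 had bases 1 to 150 in Jinhua 2 alone. A bound at base 1 is set by the transcript model and does not locate the methylated base.

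Other small-subunit genes were called in 3 lists or fewer. RPS27A, which encodes ubiquitin fused to a ribosomal protein, had bases 174 to 340 (Jinhua 1), 183 to 340 (Jinhua 2) and 191 to 340 (Landrace 1). RPS6, the substrate of the S6 kinases, had bases 450 to 550 in Jinhua 1, 473 to 610 in Landrace 1 and 441 to 540 in Landrace 2, and was the 1 small-subunit gene that Jinhua 2 lacked while the others had it. RPS2, at the mRNA entry channel, was called in Jinhua 2 alone, at bases 299 to 470. RPS27L, a p53-inducible paralog of RPS27, was called in Jinhua 1 alone, at bases 371 to 470.

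Among large-subunit genes RPL4 was the one in which the number of peaks separated the breeds. RPL4 (ENSSSCG00000004945), whose long loop lines the exit tunnel, had 2 peaks on ENSSSCT00000005457 in either Jinhua list and 1 peak in either Landrace list. The 2 Jinhua peaks adjoined without a gap, at bases 934 to 1088 and 1089 to 1276 in Jinhua 1 and at 941 to 1050 and 1051 to 1291 in Jinhua 2. The Landrace peak covered bases 1041 to 1255 in Landrace 1 and 1041 to 1254 in Landrace 2. RPL4 thus had 343 and 351 bases under peaks in the Jinhua animals and 215 and 214 in the Landrace animals. In number of peaks RPL4 was 1 of 26 genes called in all 4 lists (3.85%) with both Jinhua animals above both Landrace animals. Over all 2474 genes called in all 4 lists the same held for 7.96%. The reverse order was found in 0 of the 26, against 4.77% of the 2474. In bases under peaks it was 6 of the 26 (RPL29, RPL4, RPL7, RPS19, RPS3A and RPS9), a share of 23.1% against a background of 27.5% of 2255 genes. The reverse order was seen in 4 (RPL21, RPL9, RPS10 and RPSA), 15.4% against 12.3%, and in RPL7, RPL21, RPL29 and RPS9 the closest animals of the breeds were 1 base apart. These shares lie near their backgrounds.

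RPL3 and RPL6 differed between animals without following the breed. RPL3 (ENSSSCG00000000089), which reaches the peptidyl transferase centre, had bases 531 to 735 of ENSSSCT00000000095 in Jinhua 1 and 512 to 702 in Landrace 2. Jinhua 2 had bases 571 to 807 and a separate peak at 1011 to 1150. Landrace 1 had the adjoining peaks 517 to 703 and 704 to 941. RPL6 (ENSSSCG00000024825) had 1 peak in Jinhua 1, at bases 671 to 770 of ENSSSCT00000024558, and 2 in the others. Its upstream site lay at bases 399 to 558 in Jinhua 2, 371 to 500 in Landrace 1 and 355 to 500 in Landrace 2, and its downstream site was present in all 4.

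RPL29 was called in every animal but not at one place. Its peak lay at bases 606 to 762 (Jinhua 1), 605 to 761 (Jinhua 2) and 606 to 761 (Landrace 2), whereas the RPL29 peak of Landrace 1 lay at bases 191 to 290. RPL29 was therefore the 1 gene of the 26 called in all 4 lists in which no site was shared by all 4. RPL7L1, a paralog of RPL7 whose yeast counterpart Rlp7 acts in assembly of the large subunit, had a coding peak in all 4 animals, at bases 312 to 465, 313 to 471, 312 to 472 and 317 to 440 in the order of lists above. Jinhua 1 and Landrace 1 also had an RPL7L1 peak in the 3' UTR, at bases 1231 to 1411 and 1231 to 1330. RPL26L1, a paralog of RPL26, was called in Jinhua 2 alone, at bases 101 to 250.

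Other large-subunit genes called in all 4 lists had 1 coding peak each. RPL7 began at base 95 or 96 in every animal and ended at bases 251 to 254 in 3 of them and at base 302 in Jinhua 2. RPL17, which lines part of the exit tunnel, ended at base 818 or 819 in every animal and began at bases 662 to 681. Over the 4 lists RPL32 lay at bases 714 to 902, RPL14 at 473 to 645, RPL21 at 644 to 844, RPL9 at 55 to 229 and RPL36 at 231 to 340. RPL22, which has a role in T-cell development in mice, lay at bases 31 to 150, with a peak of 100 bases in every animal. The transcript models give no coding start, so these positions do not say how far a peak lies from the start codon.

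Calls that were missing from 1 list fell on 3 of the 4 lists. RPL15 and RPL18 were called in 3 lists each, without Landrace 2, and both peaks began at base 1 of the transcript wherever called. RPL15 ended at bases 130 to 134 and RPL18 at bases 118 to 130. RPL30 and RPL39, a small protein of the exit tunnel, were missing from Jinhua 2. RPL39 peaks of 100 bases began at base 241 in Jinhua 1, 291 in Landrace 1 and 271 in Landrace 2. RPL13 was missing from Jinhua 1 and began at base 221 in Jinhua 2, 191 in Landrace 1 and 181 in Landrace 2. RPL12, a stalk-base protein, RPL27A and RPL35 were called in Jinhua 2 alone, RPL23, which can bind the p53 regulator MDM2, in Jinhua 1 alone and RPL27 in Landrace 2 alone. Jinhua 2 was the single list for 7 of the 10 genes called once, and it was the single list for 654 of all 1375 genes called once.

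Of all the called ribosomal protein genes RPS26 and RPS28 were the pair that parted the breeds. Both proteins lie where the mRNA leaves the small subunit. RPS26 (ENSSSCG00000000374) had 1 coding peak in each Landrace animal, at bases 451 to 600 of ENSSSCT00000000399 in Landrace 1 and 449 to 604 in Landrace 2, and none in either Jinhua list. RPS28 (ENSSSCG00000013597) had bases 23 to 170 of ENSSSCT00000014851 in Landrace 1 and 21 to 120 in Landrace 2, and none in either Jinhua list. These 2 of 46 genes stand beside a background of 2.42%, or 137 of 5650 genes, called in the Landrace pair alone. Both RPS28 peaks were narrower than 150 bases, and RPS28 had no call when such peaks were not counted. No ribosomal protein gene was called in the Jinhua pair alone, where the background was 5.15%. By position the same 2 genes held the 2 Landrace-only sites among 52, against 3.38% of all 9414 sites, and there were 0 Jinhua-only sites against 5.59%. Where peaks had to overlap by 50% of the shorter one, there were 3 Landrace-only sites, with RPL30, and 1 Jinhua-only site, in RPL4. The shares over all sites under that rule are not given here, and the backgrounds above do not apply to it. Left with 1 list for a breed, the number of genes parted by breed was 12 without Jinhua 1, 5 without Jinhua 2, 6 without Landrace 1 and 2 without Landrace 2. The matching shares over all called genes are not given here, so these counts have no background.

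The number of ribosomal protein genes called did not separate the breeds. Jinhua 1 had 34, Jinhua 2 had 38, Landrace 1 had 35 and Landrace 2 had 34, so the groups overlapped. The mean ± SD over 2 animals was 36 ± 2.83 genes for Jinhua and 34.5 ± 0.707 for Landrace (two-sided exact permutation p = 1). Jinhua animals had 39.5 ± 3.54 peaks and Landrace animals 37.5 ± 2.12 (SD over 2 animals, two-sided exact permutation p = 0.667), a difference of 2 that was -0.5 without Jinhua 2. As a share of the 46 genes the lists held 73.9%, 82.6%, 76.1% and 73.9%, in the order above. As a share of all 5650 called genes they held 68.4%, 79.1%, 67.2% and 64.5%, so Jinhua 2 was highest in both.

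**Figure D3:**
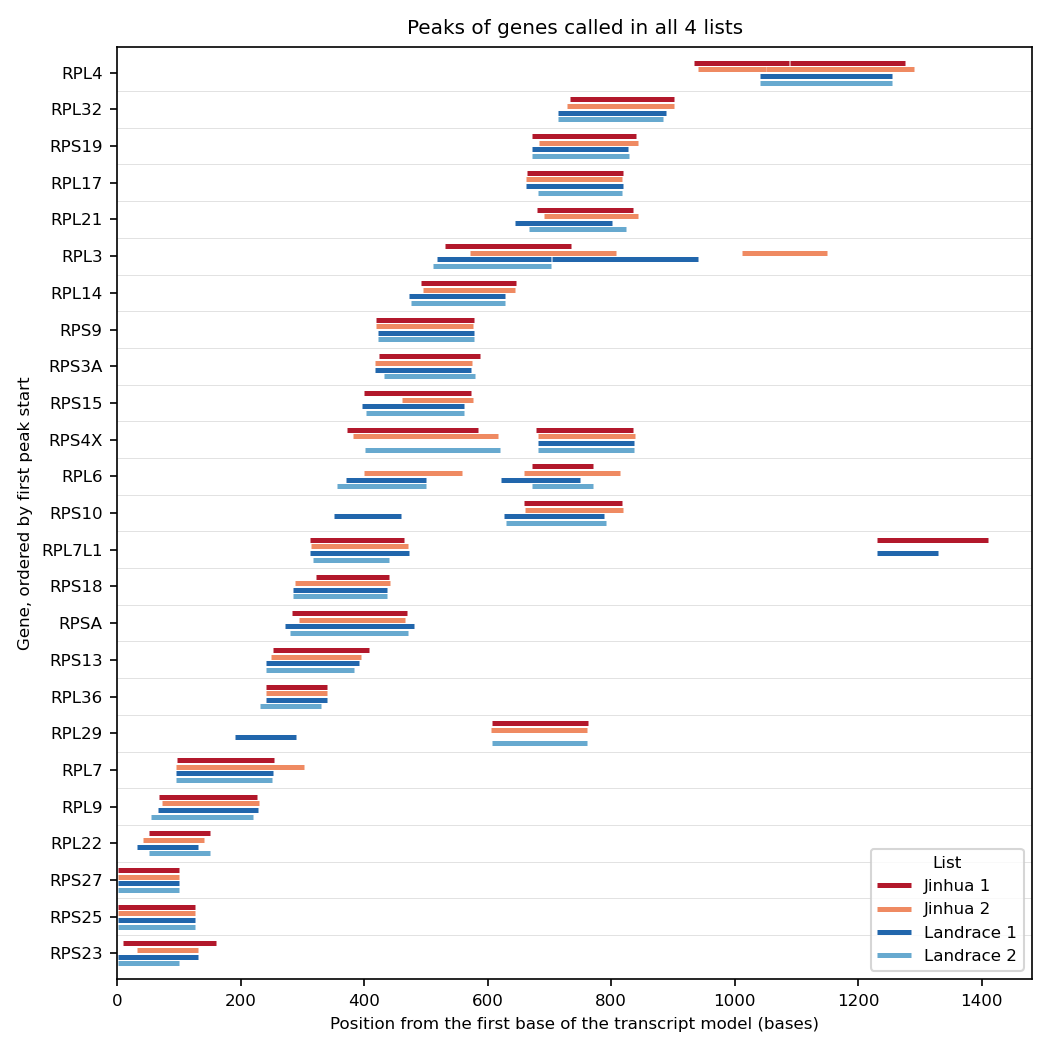
Peaks of 25 ribosomal protein genes called in all 4 lists, drawn from first to last base on the transcript model, in bases from its first base, with 1 coloured line per animal. In each gene but RPL29 at least 1 site holds a line of every colour, whereas the RPL29 peak of Landrace 1 stands apart, and the adjoining Jinhua peaks of RPL4 reach further to the left than the Landrace peaks.

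Nearly every peak of these genes was annotated as coding sequence. Over the 4 lists 148 of 154 peaks were coding (96.1%, 95% Wilson interval 91.8 to 98.2). By animal the coding share was 94.6% (82.3 to 98.5) in Jinhua 1, 97.6% (87.7 to 99.6) in Jinhua 2, 94.9% (83.1 to 98.6) in Landrace 1 and 97.2% (85.8 to 99.5) in Landrace 2. All genes with at most 3 peaks per list had 67.3%, 70.6%, 69.8% and 69.8%, so the interval of each animal for ribosomal protein genes lay above the value for genes at large. The intervals cover counting error of peaks, and the peaks of the 4 lists mostly lie at the same sites, so the pooled interval is too narrow. The breeds did not differ beyond the spread between animals, with 96.1% ± 2.14 for Jinhua and 96.0% ± 1.66 for Landrace (SD over 2 animals, two-sided exact permutation p = 1). The lists do not give the length of each part of a transcript, so the share was not set against how much of these transcripts is coding.

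The 6 peaks outside coding sequence belonged to 4 genes. In RPL30, whose yeast counterpart regulates splicing of its own transcript, the peaks at bases 21 to 120 in Landrace 1 and 11 to 110 in Landrace 2 were annotated as 5' UTR, and the peak at bases 121 to 262 in Jinhua 1 as coding sequence. The RPL30 peaks of Jinhua 1 and Landrace 1 adjoined at bases 120 and 121 without sharing a base. The others included the peak of RPS27L in the 5' UTR and those of RPL7L1 in the 3' UTR. The 3' UTR thus held 1.95% of peaks in ribosomal protein genes and 22.5% in genes with 3 or fewer peaks per list.

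**Figure D4:**
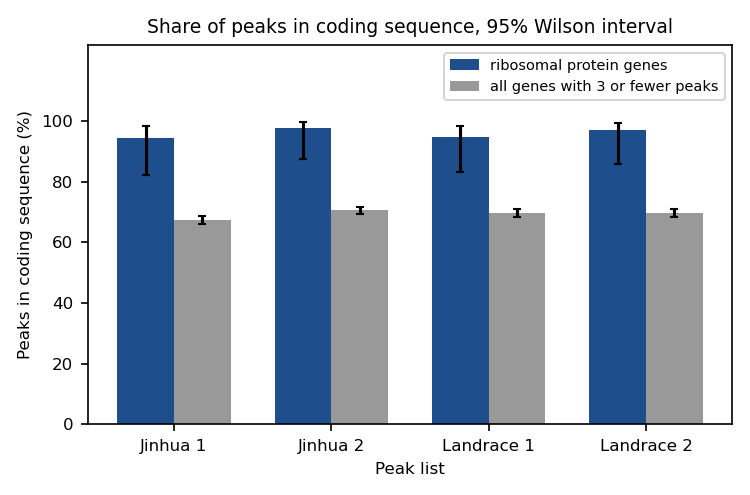
Share of peaks annotated as coding sequence in each peak list, in percent, for ribosomal protein genes and for all genes with at most 3 peaks per list, with 95% Wilson intervals as bars. The ribosomal protein values lie between 94.6% and 97.6% and the others between 67.3% and 70.6%.

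Peaks of these genes lay close to the transcript start in bases and recurred at nearly the same place. The median first base was 372 in Jinhua 1, 347 in Jinhua 2, 351 in Landrace 1 and 402 in Landrace 2, against 679.5 to 704 for genes at large. The breed means of 359.5 ± 17.7 and 376.5 ± 36.1 bases did not differ beyond the spread (SD over 2 animals, two-sided exact permutation p = 0.667). The last peak of any ribosomal protein gene ended at base 1411, in RPL7L1, and the lists do not give transcript lengths, so the part of length in the low values was not tested. A start at base 1 was found for 17 of 154 peaks (11%), in RPL15, RPL18, RPS12, RPS23, RPS25 and RPS27, against 7.25% of peaks of genes at large.

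Peaks that overlapped or adjoined were merged over the lists into 52 sites in the 46 genes. Of these 25 held a peak in all 4 lists (48.1%), where the background over 9414 sites was 27.1%, and 13 held a peak in 1 list (25%, against 39.3%). In the 23 sites with exactly 1 peak from each list, the 4 midpoints spanned 14.5 bases at the median. Over all genes with complete positions 2123 such sites had a median of 23.5 bases. A span of 20 bases or less was found in 17 of the 23 (73.9%) and in 45.1% of all such sites. The widest spans were 51 bases in the downstream site of RPL6 and 45 bases in RPL21.

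**Figure D5:**
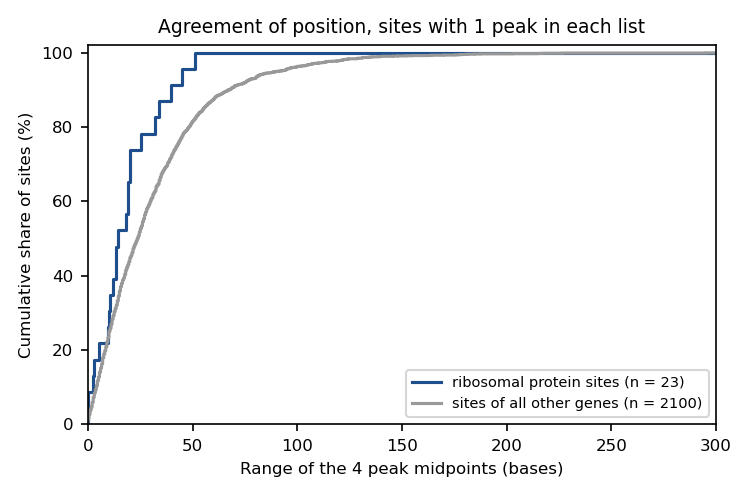
Cumulative share of sites, in percent, by the range of the 4 peak midpoints in bases, for the 23 ribosomal protein sites with 1 peak in each list and for such sites in all other genes. The ribosomal protein curve reaches 73.9% at 20 bases and ends at 51 bases.

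Bases under ribosomal protein peaks were shared more between some animals than others. The Jaccard index, the bases under peaks of both animals over those of either, was 0.667 for the Landrace pair and 0.611 for the Jinhua pair. Between the breeds it was 0.607 for Jinhua 1 with Landrace 1, 0.612 for Jinhua 1 with Landrace 2, 0.529 for Jinhua 2 with Landrace 1 and 0.543 for Jinhua 2 with Landrace 2. The Jinhua pair thus shared no more than Jinhua 1 did with Landrace 2. Pairs within a breed averaged 0.639 and pairs across breeds 0.573, a difference of 0.066 (exact permutation p = 0.333, one-sided, the smallest that 3 splits of 4 animals allow). Without Jinhua 1 the difference was 0.1305, without Landrace 1 it was 0.0339 and without Landrace 2 it was 0.0425, and in the genes called in all 4 lists it was 0.0397. The same index over all genes ran from 0.379 to 0.463 and was again lowest for Jinhua 2 with either Landrace animal. Over all genes it was 0.445 for the Jinhua pair, 0.463 for the Landrace pair and 0.379 to 0.446 between the breeds. A higher mean within breeds was thus not particular to ribosomal protein genes.

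The width of ribosomal protein peaks is given here as a description, without a test. The median width of ribosomal protein peaks was 156, 155.5, 152 and 151.5 bases in the order of lists above, against 156 or 157 at large. Peaks of exactly 100 bases, the smallest width in the lists, made up 20.8% of ribosomal protein peaks and 10.6% of those at large, and were most frequent in Landrace 2, with 12 of 36. Peaks of 150 bases or more numbered 24 of 37 in Jinhua 1, 26 of 42 in Jinhua 2, 22 of 39 in Landrace 1 and 18 of 36 in Landrace 2. In genes called in all 4 lists 81 of 117 ribosomal protein peaks were that wide (69.2%, against 70.2% at large), and in genes called once 4 of 10 were (40%, against 41.5%). In genes called in 2 and 3 lists the shares were 33.3% and 14.3%, against 48.9% and 54.9% at large. They rest on only 3 and 7 genes. The share thus did not rise steadily with the number of lists as it did at large, but these few genes cannot establish a different trend. Of the 26 genes called in every list 13 kept a call in every list when peaks under 150 bases were not counted. RPL22, RPL36 and RPS27 had peaks of 100 bases in every animal and RPS25 peaks of 125 bases, so these genes had no call at that width. The matching share of all 2474 genes called in every list is not given here, so the 13 of 26 have no background.

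A reference set of 80 human cytosolic ribosomal proteins places the 46 genes in the whole particle. Of these genes 43 are in the set, and the paralogs RPL7L1, RPL26L1 and RPS27L are not. RACK1, a signalling scaffold on the head of the small subunit listed under its older symbol GNB2L1, was called in every animal as well. Its peak in the 3' UTR ended at base 963 or 964 in all lists and began at base 810 for Jinhua 1, 809 for Jinhua 2, 783 for Landrace 1 and 810 for Landrace 2, and Jinhua 2 had a further GNB2L1 peak at bases 71 to 170 in the coding sequence. With RACK1 the lists named 44 of the 80. The symbols of the other 36 were not found in any list, among them 12 of 33 for the small subunit, such as RPS3 and RPS14, and 24 of 47 for the large subunit, such as RPL5, RPL8, RPL11 and all 3 stalk proteins RPLP0, RPLP1 and RPLP2. Some identifiers in the lists carry no symbol, and 1 that the lists call SYVN1 is FAU, a small-subunit protein gene, in the gene name table. The lists' symbols were kept, so FAU counts among the 36, and a missing symbol does not show a missing peak. Mammalian genomes hold many processed copies of ribosomal protein genes. How reads that fit several copies were counted is not given in the sources used here, and its effect on calls in these genes was not tested.

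Other mRNAs of the translation machinery are given for comparison, as counts without a test, beside the 43.8% of all called genes with a peak in all 4 lists. Of 23 symbols for mRNAs with the TOP motif that are not ribosomal proteins, 16 were called and 14 of these (87.5%) were called in all 4 lists. This set and the next were chosen with earlier results of these data known. Several of the 16 had more than 1 peak in a list. For all called genes with at most 1 peak in any list the share was 21%. The elongation factor EEF2 had 4, 4, 3 and 2 peaks in the order of lists above, the chaperone subunit NACA had 4, 3, 3 and 2, and EEF1A1 had 2 in each. None of the 16 was called in the pair of 1 breed alone, where 5.15% of all called genes were called in the Jinhua pair alone and 2.42% in the Landrace pair alone. By number of peaks EEF2 was the only one of them with both Jinhua lists above both Landrace lists, and none had the reverse order. Over all genes called in all 4 lists these shares were 7.96% and 4.77%. Of 73 symbols for ribosome assembly factors 38 were called, 21 of them (55.3%) in all 4 lists, among them NOP14 with 2, 2, 3 and 2 peaks and the snoRNP protein NOP56 with 2, 2, 1 and 2. Of these 21, DDX21 (2, 3, 1 and 1) and FBL (2, 2, 1 and 1) had both Jinhua lists above both Landrace lists. EMG1 (1, 1, 2 and 2) had the reverse order. The shares of 7.96% and 4.77% are the background here as well. DNAJC21, NOP16 and UTP18 were called in the Jinhua pair alone, 3 of 38 against the 5.15% over all called genes.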

How the data were processed

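RNA from muscle of 4 pigs was profiled as 8 libraries, 1 input and 1 IP per animal. Per the labels' protocols, TRIzol extracts were enriched for mRNA with a Dynabeads kit. IP material was then sheared by sonication and captured by an antibody to m6A, and strand-specific TruSeq libraries followed. Per the submitters' processing notes, reads were handled with TopHat2 2.0.14, and the genome is named as Sscrofa10.2 or susScr3. The peak-calling tool and cutoff, the gene models' release and the use of input are items not given in the sources used here. As deposited by the authors, each animal has 1 list, with peak numbers and 1-based transcript positions per the file headers.

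Genes were matched by the symbol in the lists, and 17 of the 46 identifiers were also in the gene name table, with the same symbol. No ribosomal protein gene had more than 2 peaks, so all their positions were complete. Values over all genes used the 5422 genes with at most 4 peaks in each list for position and the 5132 with at most 3 for location, since 2 lists give positions for at most 4 peaks and locations for at most 3. Breed means were compared by exact permutation over animals, and shares have 95% Wilson intervals. The labels describe separate males. By rule every ribosomal protein gene was to be named; some are not reported here, and the counts cover all 46. Also named are members of the 2 lists of translation genes that were called in every list or parted the breeds. The members and lists were chosen with earlier results of these data known. Site merging, overlap and the exact test were tested on simulated data with Python 3.11.15. The alternatives were leaving out each animal, a replicate block, standard proteins only, a minimum width and other joining rules. Sequences were not used here, and no genome coordinates are printed.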

Additional observations from a re-analysis of the deposited data

How the results depend on the processing

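No comparison of the breeds passed 0.05 under any setting, which the design does not allow. Leaving out each animal in turn moved the difference in genes called (Jinhua minus Landrace) between -0.5 and 3.5, with the negative value without Jinhua 2, and that in peaks between -0.5 and 4.5, again negative without Jinhua 2. The difference in coding share ran from -1.45 to 1.57 percentage points and was negative without Jinhua 2 and without Landrace 1. The difference in median start ran from -42.5 to 8.5 bases, positive without Landrace 2, and it turned to 10.8 bases with standard proteins only. These 4 differences thus have no stable direction. The count of genes parted by breed ran from 2 to 12 when an animal was left out, highest without Jinhua 1. A single list then stood for the breed of that animal, and the effect of this on the counts was not tested. These counts have no background over all called genes beside them. With peaks of 150 bases or more, an alternative chosen after seeing the data, 13 genes in place of 26 were called in all 4 lists, since fewer peaks count. No matching share over all called genes is given beside that number. Sites shared by all 4 lists stayed at 25 under both other joining rules. Where peaks had to overlap by 50% of the shorter peak, however, the upstream RPL4 peak became 1 Jinhua-only site, and with the RPL30 peaks there were 3 Landrace-only sites. No share over all sites under that rule is given beside them. With the replicate number as a replicate block the differences in genes and peaks were the same, 1.5 and 2, with exact sign-flip p = 1 for both (the smallest possible is 0.5). The deviations of same-numbered animals correlated at -0.0227 over all called genes and 0.11 over ribosomal protein genes, and the numbers name separate animals. Depth is unknown, so absent calls cannot be told from shallow ones.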
